A study of Homo sapiens with 6 samples.

Results

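The genes described here encode small interferon-induced membrane proteins. IFITM1, IFITM2 and IFITM3 belong to the IFITM family, and IFI6 and IFI27 to another family. The last, BST2, is also called tetherin. These genes are 6 of the 20979 gene symbols listed in the series. They were matched by symbol, and the choice of these symbols was made with duplex-against-control TPM of these libraries in view, so the members were selected on values from the contrasts with control. Those contrasts are therefore given as a description: counts of members past a threshold in them follow from the choice and support nothing. The comparison of the duplexes with each other is the difference of those contrasts, so it is not independent of the choice either.

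RNA came from A172 cells, a human glioblastoma line grown in DMEM with serum. Cells were transfected by a lipid reagent with a control microRNA (the control group), a miR-324-5p duplex (the 5p duplex group) or a miR-324-3p.1 duplex (the 3p.1 duplex group) and harvested after 1 day. Each group held 2 libraries, enriched with oligo-dT, stranded and read as 100 bp pairs on a BGISEQ-500 instrument. All libraries come from transfected cells; no untransfected library was analysed here, so a rise with the control microRNA and a decrease with the duplexes cannot be told apart. Whether the replicates were separate cultures is not in the labels, and every p-value here reflects the spread among these libraries alone, which may be technical. Values are TPM, a relative transcript abundance scaled by transcript length and library total; sequencing depth is unknown.

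Interferons act through receptors that signal by the kinases JAK1 and TYK2 to the factor ISGF3, of which STAT2 and IRF9 are subunits. ISGF3 binds the interferon-stimulated response element in the promoters of interferon-stimulated genes. IFITM proteins sit in the plasma membrane and endosomes and hinder the fusion of virus with cell membranes, IFITM1 mostly at the cell surface and IFITM2 and IFITM3 in endosomes. BST2 tethers budding enveloped virus to the cell surface, IFI27 is a hydrophobic protein of internal membranes and IFI6 a hydrophobic protein that hinders flavivirus replication at the endoplasmic reticulum.

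Both duplexes were named for arms of miR-324, so its mature human arms are shown first, with the seed (bases 2 to 8), the part that pairs with targets, in capitals. They are RefSeq sequences on GRCh38.p14, from chromosome 17, minus strand, at 7223343 to 7223364 (5p) and 7223308 to 7223330 (3p). The labels do not give the sequence or first base of the 3p.1 form.
miR-324-5p: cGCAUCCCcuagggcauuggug
miR-324-3p: cCCACUGCcccaggugcugcugg

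The promoters of the members are shown because 5 of the 6 members stood well below control with both duplexes and the response element is a short word that can be read in them. RefSeq promoters (250 bases before to 50 after the start, GRCh38.p14) matched 5 of the 6 members by symbol: IFITM1, IFITM3, IFI6, IFI27 and BST2, but not IFITM2. Capitals mark matches to the response element core GAAANNGAAA, searched on both strands with overlaps allowed. IFITM1 is at chr11:313790-314089 (plus strand), IFITM3 at chr11:320811-321110 (minus), IFI6 at chr1:27672143-27672442 (minus), BST2 at chr19:17405581-17405880 (minus) and the first of a pair of IFI27 starts at chr14:94110486-94110785 (plus).
IFITM1: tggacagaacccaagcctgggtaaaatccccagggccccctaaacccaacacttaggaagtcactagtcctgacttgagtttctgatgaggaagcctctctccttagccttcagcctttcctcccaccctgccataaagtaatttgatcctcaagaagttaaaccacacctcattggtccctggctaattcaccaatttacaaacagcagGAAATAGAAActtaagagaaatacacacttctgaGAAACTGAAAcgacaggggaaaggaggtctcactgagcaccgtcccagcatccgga
IFITM3: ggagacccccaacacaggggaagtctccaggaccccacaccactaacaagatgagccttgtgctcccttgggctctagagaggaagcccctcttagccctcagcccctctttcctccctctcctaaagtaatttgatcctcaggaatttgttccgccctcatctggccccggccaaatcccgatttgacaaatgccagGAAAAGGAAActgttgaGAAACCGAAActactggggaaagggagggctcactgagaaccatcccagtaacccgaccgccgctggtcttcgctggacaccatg
IFI6: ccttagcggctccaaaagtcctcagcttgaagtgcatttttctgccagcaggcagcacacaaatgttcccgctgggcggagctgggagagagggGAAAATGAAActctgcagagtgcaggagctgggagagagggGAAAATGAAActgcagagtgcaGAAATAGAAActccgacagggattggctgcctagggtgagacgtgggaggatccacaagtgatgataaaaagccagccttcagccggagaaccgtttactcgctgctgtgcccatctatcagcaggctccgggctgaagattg
IFI27: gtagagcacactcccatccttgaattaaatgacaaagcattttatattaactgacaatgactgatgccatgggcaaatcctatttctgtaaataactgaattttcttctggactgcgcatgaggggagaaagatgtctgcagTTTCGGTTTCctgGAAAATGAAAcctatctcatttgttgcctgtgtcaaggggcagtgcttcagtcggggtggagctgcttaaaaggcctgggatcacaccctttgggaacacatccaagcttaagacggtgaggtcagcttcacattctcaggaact
BST2: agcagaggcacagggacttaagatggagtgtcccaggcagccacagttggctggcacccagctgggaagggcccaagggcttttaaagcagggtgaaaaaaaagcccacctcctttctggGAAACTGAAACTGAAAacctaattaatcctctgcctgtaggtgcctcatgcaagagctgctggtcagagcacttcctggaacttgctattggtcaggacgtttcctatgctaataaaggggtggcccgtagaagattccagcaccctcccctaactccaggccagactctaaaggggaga

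All 5 promoters held the core, and each held more than 1 match. IFITM1 had 2 matches, beginning 40 and 6 bases before the start, and IFITM3 had 2, at 52 and 35 bases before it. IFI6 had 3 matches, at 156, 115 and 93 bases before the start. IFI27 had 2, at 108 bases on the other strand and at 95 bases on the gene's strand. In BST2 there were 2 overlapping matches, at 130 and 124 bases before the start. Of all 35116 promoters in the table, 1255 (3.57%) held the core, and counted by gene 1195 of 27305 had a promoter with it. In a list of other interferon-stimulated genes, 34 of 42 matched the table and 21 of those 34 had a promoter with it. In a list of interferon signalling genes, 14 of 19 matched and 3 of those 14 had it. No match was found in the promoters of the 3 relatives that matched (IFITM5, IFI27L1 and IFI27L2), nor in those of IFITM partner genes (0 of 5). A match is a description of letters and does not show binding.

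**Figure D1:**
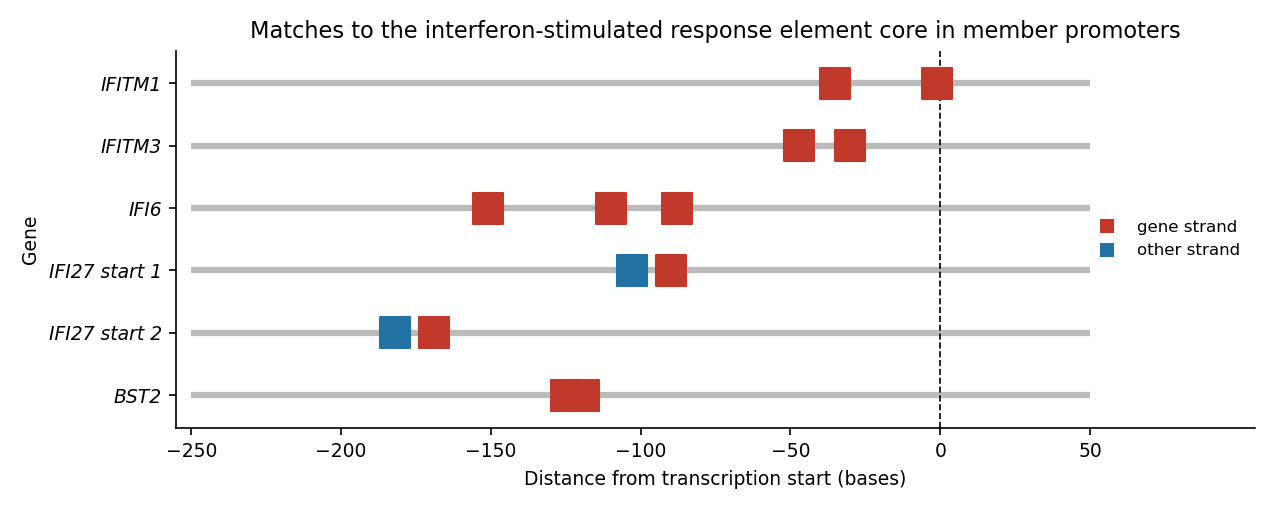
Positions of matches to the response element core (10 bases each) in the promoters of 5 members, as distance in bases from the transcription start; red, gene strand; blue, other strand. IFITM1 and IFITM3 have theirs within 52 bases of the start, while those of IFI6, IFI27 and BST2 begin 93 to 187 bases before a start.

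None of the 6 members carried a site for the miR-324-5p seed in its 3′UTR, the stretch after the coding part where microRNA sites are mostly sought. The site is GGGATGC, or GGATGCA, which also counts as a 7-base site. In the longest 3′UTRs annotated in GENCODE 29, 17.2% of 11765 expressed genes carried one. Sites for the 3p arm depend on its first base. A seed from base 2 of the RefSeq sequence has the site GCAGTGG, found in this form or in the shifted form ending in A in 36.3% of expressed genes. Starting at base 3 the site is GGCAGTG, found in 34.4% of them. From base 5 it is GGGGCAG, found in 30.6%. Among the members only IFI6 had one, a single GCAGTGG. The members' 3′UTRs were short, 159 bases in IFITM1 to 467 in IFITM2, against a median of 1635 bases.

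The IFITM genes lie side by side on chromosome 11 (GENCODE 29, GRCh38): IFITM2 at 307631 to 315272 and IFITM1 at 313506 to 315272 on the plus strand, and IFITM3 at 319669 to 327537 on the minus strand. The annotated IFITM2 span ends at the last base of IFITM1, so the pair overlaps on 1 strand and stranded reads do not separate them. IFITM3 also overlaps the non-coding genes AC136475.7 and AC136475.8 on its strand, and IFITM2 and IFITM3 overlap others on the opposite strand. Of the 100-base stretches in IFITM1 transcripts, 27.5% were also found unchanged in transcripts of another gene, as were 18.2% in IFITM2 and 3.13% in IFITM3. The split of reads for the IFITM genes is therefore uncertain. For IFI6 (chromosome 1, 27666061 to 27672218, minus), IFI27 (chromosome 14, 94104836 to 94116698, plus) and BST2 (chromosome 19, 17402939 to 17405648, minus) 0 such stretches were shared with other annotated genes. Stretches were compared on the sense strand only, and IFI6 overlaps the antisense gene AL445490.1 on the opposite strand.

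All 6 members were listed in every library at more than 1 TPM, and all passed the expression minimum (an average of 1 TPM or more, met by 13400 symbols). Of the glial markers VIM, NES and CD44 were abundant (VIM 4788 to 5910 TPM), GFAP did not pass 0.25 TPM and S100B was not listed. Markers of blood cells summed to 8.58 to 10.0 TPM in control and 9.93 to 10.8 TPM with the duplexes, with CD3E not listed. Endothelial markers summed to 11.2 to 13.5 TPM in control, 9.60 to 9.88 TPM after the 5p duplex and 11.18 to 12.03 TPM after the 3p.1 duplex, with TEK the only one of 4 to reach 1 TPM and VWF at 0.07 TPM or less. The part of these markers in the members' differences was not tested. In bulk RNA, fewer cells expressing a gene and less RNA per cell cannot be told apart. The controls stood apart from each other: their members differed by a median of 1.49 on the log2 scale, against a median absolute difference of 0.167 over all genes.

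Among the IFITM genes, IFITM1, the cell-surface member, showed the widest difference. It stood at 92.78 and 321.23 TPM in control replicates 1 and 2, at 8.67 and 5.92 TPM after the 5p duplex and at 7.95 and 8.69 TPM after the 3p.1 duplex. Both controls lay far above all 4 duplex libraries, and the lower control was 10.7 times the highest library of either duplex. The means were 207 ± 162 TPM in control, 7.30 ± 1.95 after the 5p duplex and 8.32 ± 0.523 after the 3p.1 duplex (SD, n = 2 each). On the log2(TPM + 1) scale, which understates changes of low genes, the differences from control were -4.41 (SE 0.525) and -4.22 (SE 0.525).

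IFITM3, the endosomal restriction factor best known from influenza, was the most abundant member. Its TPM was 1128.95 and 1775.9 in the controls, 552.42 and 693.27 after the 5p duplex and 580.31 and 570.68 after the 3p.1 duplex. The groups did not overlap, but the gap was narrower than for IFITM1: the control mean was 2.33 and 2.52 times that of the 5p and 3p.1 duplex. Log2 differences were -1.19 and -1.30 (SE 0.219 each).

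IFITM2, the close relative of IFITM3, had the smallest difference of the 6 members. The controls held 174.93 and 235.54 TPM, the 5p duplex libraries 122.1 and 187.47 TPM and the 3p.1 duplex libraries 130.88 and 150.23 TPM. Here 5p duplex replicate 2 lay above control replicate 1, so those groups overlapped, and the 3p.1 duplex libraries lay below both controls. The log2 differences were -0.42 and -0.53 (SE 0.230 each). Added together, which depends less on how reads were split within the family, IFITM1, IFITM2 and IFITM3 held 1396.66 and 2332.67 TPM in control, 683.19 and 886.66 after the 5p duplex and 719.14 and 729.6 after the 3p.1 duplex.

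IFI6 stood at 80.58 and 220.44 TPM in control, 14.07 and 10.2 after the 5p duplex and 9.3 and 11.89 after the 3p.1 duplex. Even the lower control was 5.73 and 6.78 times the highest library of each duplex, and the log2 differences were -3.37 and -3.54 (SE 0.439 each). IFI27, its family partner, stood at 98.9 and 287.96 TPM in control, 15.27 and 16.3 after the 5p duplex and 14.06 and 14.61 after the 3p.1 duplex. All 4 duplex libraries lay between 14.06 and 16.3 TPM, far below both controls, with log2 differences of -3.34 and -3.47 (SE 0.438 each).

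BST2 was the least abundant member. It stood at 28.48 and 104.62 TPM in control, 4.66 and 6.44 after the 5p duplex and 3.96 and 5.98 after the 3p.1 duplex. The controls did not overlap the duplex libraries, although they differed from each other by 3.67 times, the widest control spread of the members. Log2 differences were -3.10 and -3.25 (SE 0.554 each).

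**Figure D2:**
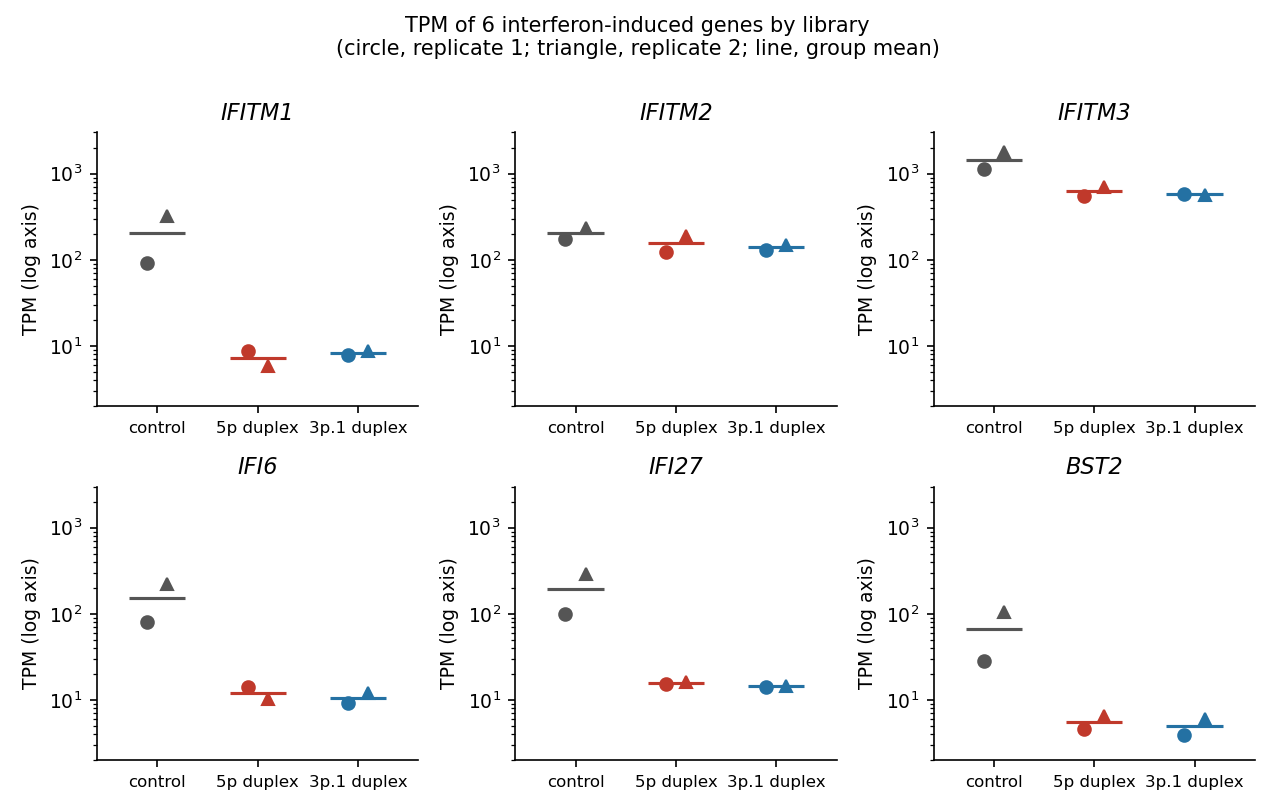
TPM (log axis) of the 6 members in each library; circles, replicate 1; triangles, replicate 2; horizontal lines, group means. For IFITM1, IFI6, IFI27 and BST2 all duplex libraries lie at 16.3 TPM or lower and both controls at 28.48 TPM or higher, while IFITM2 overlaps between control and 5p duplex.

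Since TPM is scaled by length, levels can be set against each other. Among the IFITM genes this is limited by the uncertain split of reads. In control the order of the means was IFITM3 (1452 ± 458 TPM, SD, n = 2), IFITM1 (207 ± 162), IFITM2 (205 ± 42.9), IFI27 (193 ± 134), IFI6 (151 ± 98.9) and BST2 (66.6 ± 53.8). The libraries of IFITM1, IFITM2, IFI27 and IFI6 overlapped in that group, as did those of IFI6 and BST2. The order of these neighbours thus does not exceed the spread between libraries. Within each control library, IFI27 lay above IFI6 and IFI6 above BST2, while the order of IFITM1, IFITM2 and IFI27 differed between the controls. With the 5p duplex the order was IFITM3 (623 ± 99.6), IFITM2 (155 ± 46.2), IFI27 (15.8 ± 0.728), IFI6 (12.1 ± 2.74), IFITM1 (7.30 ± 1.95) and BST2 (5.55 ± 1.26), with only IFITM1 and BST2 overlapping. The 3p.1 duplex gave the same order, 576 ± 6.81, 141 ± 13.7, 14.3 ± 0.389, 10.6 ± 1.83, 8.32 ± 0.523 and 4.97 ± 1.43 TPM, and there no neighbours overlapped. IFITM1 thus had a mean near that of IFITM2 in control, though it lay below IFITM2 in replicate 1 and above it in replicate 2. With either duplex IFITM1 stood below IFI6.

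The size of the difference varied among the members. IFITM1, IFI6, IFI27 and BST2 had control means 11.99 to 28.4 times those of the duplexes, and these 4 also differed most between the controls, by 2.74 to 3.67 times. IFITM2 and IFITM3 had control means 1.33 to 2.52 times those of the duplexes and differed by 1.35 and 1.57 times between controls. All 6 members were higher in control replicate 2 than in replicate 1, as were 55.9% of all genes. With the 5p and 3p.1 duplex 4 and 5 members were higher in replicate 2, as were 51.0% and 53.2% of all genes. Together the 6 members took 0.160% and 0.295% of all TPM in the controls and 0.0717% to 0.0920% in the duplex libraries.

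Across all 13400 genes that met the minimum, limma was fitted to log2(TPM + 1), and a gene is named called where its Benjamini-Hochberg adjusted p was under 0.05. For the contrasts with control, which the choice of members used, the model called 3 of 6 members lower after the 5p duplex (IFITM1, IFI6 and IFI27), where 0.425% of all genes were called lower. The 3p.1 duplex gave 0 of 6 calls, where 0.00746% of all genes were called lower; 5 of the 6 had an unadjusted p under 0.05 in each contrast, as had 1227 and 919 of all 13400 genes. Since the members were selected on these contrasts, nothing is read from their counts against the shares of all genes. Groups did not overlap, with the duplex lower, for 5 members (5p duplex; background 22.1% of genes) and 6 members (3p.1 duplex; background 24.1%). These contrasts share the controls. The calls depended on single libraries and settings. With the 5p duplex 0 members were called without the TPM minimum, without a variance trend or when only the groups compared were fitted. Adding the replicate number to the model as a block gave 5 calls in each contrast, although no label links that number to a shared batch or day. Without control replicate 1, 5 members were called in both contrasts, all but IFITM2. Without control replicate 2, the same 3 were called after the 5p duplex and 2 (IFITM1 and IFI27) after the 3p.1 duplex. Leaving out either 5p duplex library or either 3p.1 duplex library left 0 calls in both contrasts. The direction held better than the calls, while the size depended on which control was kept. The members' median log2 difference was -3.22 and -3.36 for the 5p and 3p.1 duplex. It was -2.38 and -2.51 without control replicate 2, and -4.06 and -4.20 without control replicate 1. Over all genes the medians were -0.030 and -0.033.

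The duplexes were also compared with each other. The same duplex libraries were in view when the members were chosen, so this test is not independent of the choice. It is the difference of the contrasts with control, and a choice of genes low with both duplexes would favour a small value. None of the 6 members passed in limma (0 of 6 called, 0 with an unadjusted p under 0.05, where 0.433% of all genes were called), and adjusted p-values ran from 0.948 to 0.975. IFITM1 differed by -0.19 on the log2 scale (5p minus 3p.1 duplex, 95% interval -1.45 to 1.08), and IFITM2 and IFITM3 by 0.11 and 0.10 (-0.44 to 0.66 and -0.42 to 0.63). IFI6, IFI27 and BST2 differed by 0.17, 0.13 and 0.14 (-0.89 to 1.23, -0.93 to 1.19 and -1.20 to 1.48). A missed threshold does not show that the duplexes act alike. As ratios of TPM + 1, 5p over 3p.1 duplex, the intervals allow 0.745 to 1.55 for IFITM3 but 0.365 to 2.12 for IFITM1 and 0.437 to 2.79 for BST2. The fit pooled the spread of all 6 libraries, so the wide spread of the controls enters these intervals and p-values. They do not measure the spread between duplex libraries alone. With only the duplex libraries fitted, adjusted p-values ran from 0.752 (IFI27) to 0.914 (IFITM2) by limma. The 5p duplex libraries of IFI27 both lay above those of the 3p.1 duplex, and the other 5 members overlapped. Over all 13400 genes the 5p duplex libraries both lay above for 2818 and both below for 2595, so nothing is read from IFI27. In fits that left out 1 library the sign of 5 members, all but IFI27, turned in at least 1 fit.

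**Figure D3:**
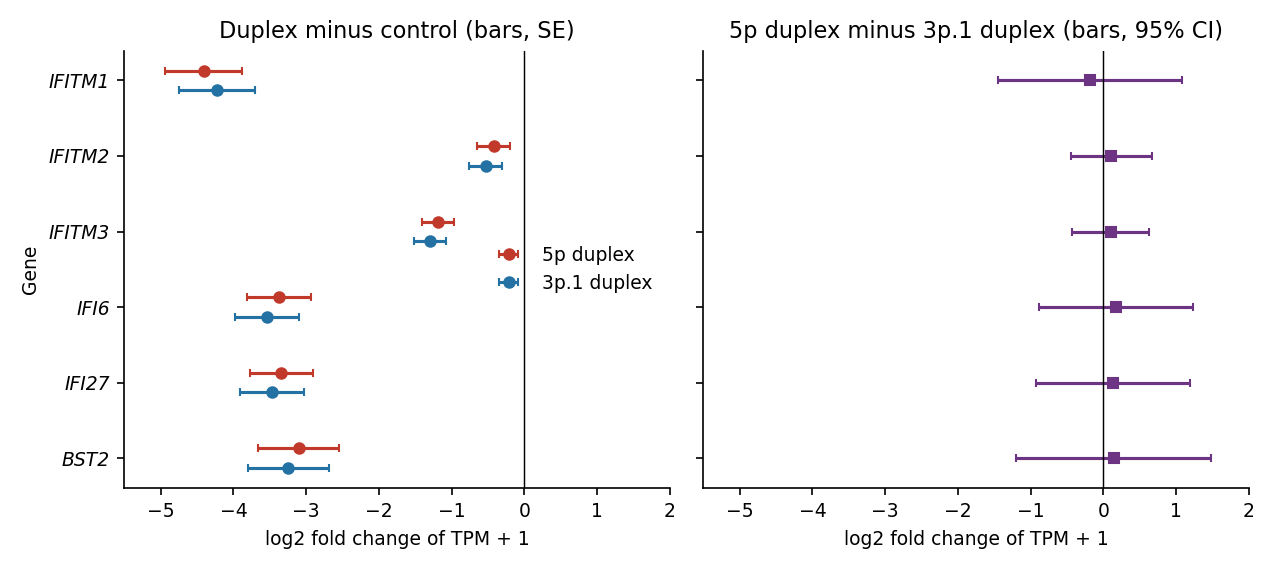
Log2 fold changes of TPM + 1 for the 6 members. Left, each duplex minus control with standard errors, where IFITM1 lies near -4.4 and -4.2 and IFITM2 near -0.4 and -0.5; right, 5p duplex minus 3p.1 duplex with 95% intervals, all of which span 0.

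The relatives of the members in the same families were not called in any contrast. IFI27L2, of the IFI27 family, stood at 129.22 and 120.46 TPM in control, 119.72 and 127.38 after the 5p duplex and 116.72 and 116.67 after the 3p.1 duplex. Its log2 differences from control were -0.01 and -0.10 (adjusted p = 0.977 and 0.923 by limma). IFI27L1 stood at 11.36 and 18.51, 9.54 and 13.95, and 11.03 and 10.74 TPM in the same order (log2 -0.31 and -0.39, adjusted p = 0.808 and 0.849). IFITM10 stood at 8.5 and 3.84, 6.82 and 3.54, and 7.05 and 2.86 TPM (log2 -0.19 and -0.28, adjusted p = 0.950 and 0.970). IFITM5, the bone member of the family, and the pseudogene IFITM4P were below the minimum, at no more than 0.65 and 1.45 TPM. Of 5 relatives 3 were tested, with 0 called by limma and 0 at an unadjusted p under 0.05. All 3 had negative log2 differences in each contrast with control, where 57.2% and 59.0% of all genes were negative. With the duplex lower, groups did not overlap for 0 of the 3 (5p duplex; background 22.1%) and for 2, IFI27L1 and IFI27L2 (3p.1 duplex; background 24.1%).

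Genes whose products are reported to bind or modify IFITM proteins were also given. ZMPSTE24, a membrane protease that works with IFITM proteins, stood at 111.64 and 120.45 TPM in control, 142.82 and 132.65 after the 5p duplex and 115.49 and 115.16 after the 3p.1 duplex. The 5p duplex libraries were highest, but the difference of 0.25 from control was not called (adjusted p = 0.448 by limma). VAPA, the endoplasmic reticulum tether that IFITM3 binds, ZDHHC20, a palmitoyltransferase, NEDD4, a ubiquitin ligase, SETD7, a lysine methyltransferase, and CD81, a tetraspanin, had log2 differences from control of -0.19 to 0.22 after the 5p duplex and -0.05 to 0.09 after the 3p.1 duplex. Of these 6 genes 0 were called by limma in any contrast, and ZMPSTE24 alone had an unadjusted p under 0.05, against control and against the 3p.1 duplex.

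Of the listed interferon signalling genes, IRF9 alone was called. Of 19 listed genes 17 passed the minimum, and after the 5p duplex 1 was called lower and 0 higher (IRF9), with 0 called in either direction after the 3p.1 duplex. Medians were -0.49 and -0.20, with 8 and 7 of the 17 genes at an unadjusted p under 0.05, against 1227 and 919 of all 13400 genes. Of all genes 0.425% and 0.00746% were called lower. The receptor subunits IFNAR1 and IFNAR2 differed by -0.07 and -0.13 after the 5p duplex (adjusted p = 0.908 and 0.860) and 0.03 and -0.05 after the 3p.1 duplex. IRF9, the DNA-binding subunit of ISGF3, stood at 55.24 and 69.24 TPM in control, 21.93 and 17.85 after the 5p duplex and 24.32 and 18.44 after the 3p.1 duplex. Its controls lay close together and above all duplex libraries, with log2 differences of -1.60 (adjusted p = 0.0326) and -1.50 (adjusted p = 0.129). The 5p duplex call of IRF9 stood without control replicate 1 (-1.76) and was lost without control replicate 2 (-1.44) or any 1 of the 4 duplex libraries (-1.45 to -1.74). It was also lost without the TPM minimum (adjusted p = 0.120), when only the groups compared were fitted (0.0528) and without a variance trend (0.0595). Of the fits leaving out 1 library, the 3p.1 duplex call appeared without control replicate 1 alone (-1.66).

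Its partner STAT2, itself interferon-stimulated, had wider controls. STAT2 stood at 40.77 and 89.26 TPM in control, 29.35 and 26.77 after the 5p duplex and 23.29 and 24.43 after the 3p.1 duplex, with log2 differences of -1.08 and -1.30 (adjusted p = 0.342 and 0.459 by limma). IRF7, which amplifies interferon production, stood at 4.42 and 10.95 TPM in control and 0.90 to 1.24 TPM in the duplex libraries (log2 -2.004 and -1.89, adjusted p = 0.0916 and 0.330). IRF1 differed by -0.56 and -0.46 (adjusted p = 0.555 and 0.797). IFNB1, which encodes interferon beta, was below the minimum, listed at 0.13 and 0.82 TPM in control and 0.31 TPM in 3p.1 duplex replicate 1 and not listed in the other 3 libraries. ISG15, a ubiquitin-like modifier, stood at 91.53 and 289.09 TPM in control and 17.17 to 21.6 TPM in the duplex libraries (log2 -2.95 and -3.07, adjusted p = 0.0753 and 0.212).

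Other interferon-stimulated genes stood lower with both duplexes as well. All 42 listed genes passed the minimum and all 42 had negative log2 differences in each contrast with control, where 57.2% and 59.0% of all genes were negative. Their medians were -1.62 and -1.77. By limma 0 of the 42 were called in either contrast, while 40 and 39 had an unadjusted p under 0.05, as had 1227 and 919 of all 13400 genes. Groups did not overlap for 41 of 42 in each contrast (background 22.1% and 24.1%); the exception in both was TMEM140, named after its values were seen. OAS1, which senses double-stranded RNA, stood at 62.32 and 224.06 TPM in control, 9.96 and 4 after the 5p duplex and 5.63 and 6.18 after the 3p.1 duplex (log2 -4.01 and -4.11, adjusted p = 0.0659 and 0.208). IFIT1, which binds foreign RNA ends, differed by -3.94 and -3.80 (adjusted p = 0.0736 and 0.242). TRIM22 differed by -0.94 and -1.25 (adjusted p = 0.385 and 0.451).

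MX1, a GTPase often used as a marker of interferon action, had a smaller difference than the median of that list. It stood at 10.26 and 12.82 TPM in control, 9.19 and 6.87 after the 5p duplex and 7.35 and 6.10 after the 3p.1 duplex, with log2 differences of -0.48 and -0.70 (adjusted p = 0.495 and 0.482). Counted over both lists, 59 genes tested, calls varied with the libraries used: 1 after the 5p duplex and 0 after the 3p.1 duplex, 39 and 40 without control replicate 1, and 3 and 1 without control replicate 2. Without any 1 of the 4 duplex libraries the count was 0 in both contrasts. Between the duplexes 0 of the 59 were called, with 1 at an unadjusted p under 0.05. The lists were drawn up with earlier results of these libraries known, so their direction is no independent evidence.

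Relative to the control mean, the median of the 6 members was -3.23 and -3.10 in the 5p duplex libraries and -3.49 and -3.19 in the 3p.1 duplex libraries. For the 42 other interferon-stimulated genes it was -1.53 and -1.73, and -1.78 and -1.67. In the controls, members and list alike lay at -0.74 and 0.74 and at -0.72 and 0.72 in replicates 1 and 2. The median of the 6 partner genes stayed between -0.06 and 0.11 in all 6 libraries.

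**Figure D4:**
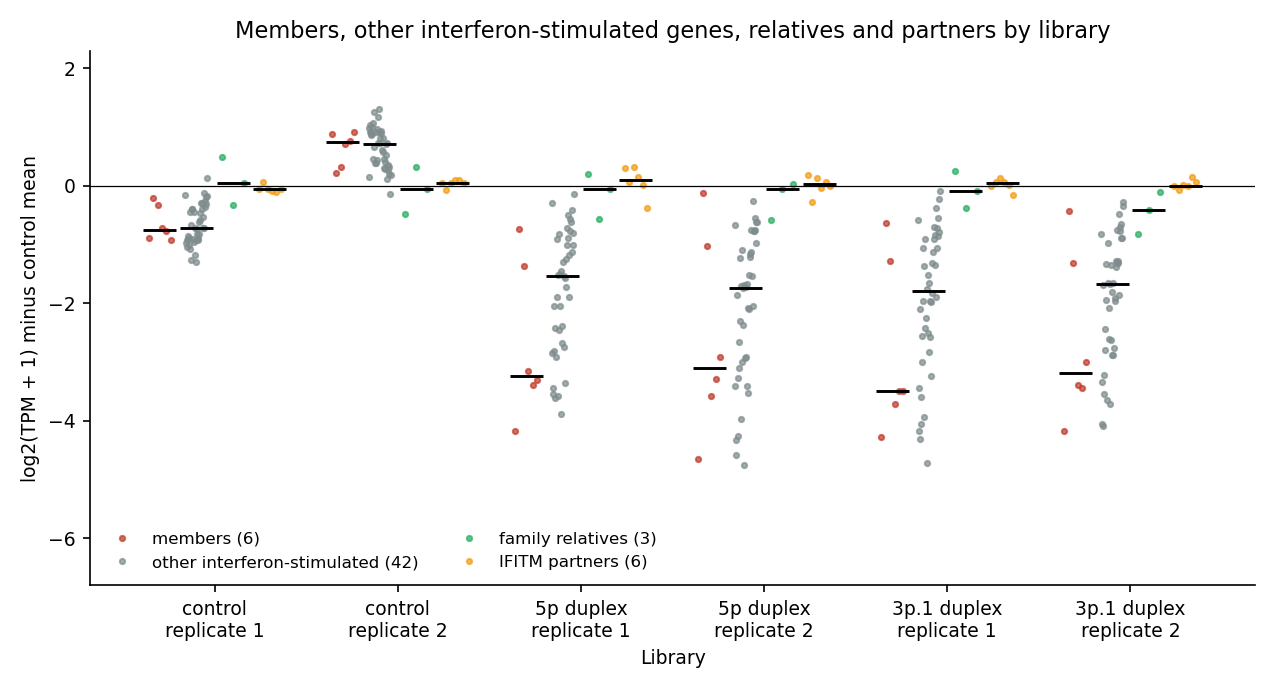
Log2(TPM + 1) minus the control mean, by library, for the members (6), the other interferon-stimulated genes (42), family relatives (3 tested) and IFITM partners (6); each point is 1 gene and black lines are medians. The medians of members and interferon-stimulated genes lie low in all 4 duplex libraries and higher in control replicate 2 than in control replicate 1, while the partner median stays between -0.06 and 0.11.

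Other genes followed the same course over the 6 libraries. Likeness was measured as Pearson's r between a gene's log2(TPM + 1) and the members' mean, over 6 libraries, for the 10618 genes averaging 5 TPM or more, and is a description: the 6 points share groups and libraries. The 10 most alike were ISG15 (0.994), DHX58 (0.994), ADO (0.992), UNC93B1 (0.992), IFI44L (0.992), OASL (0.992), IFIT1 (0.991), OAS2 (0.991), PTOV1-AS1 (0.991) and PARP10 (0.9899). Of these 6 are on the interferon lists. DHX58 is a helicase of the RIG-I family, UNC93B1 a chaperone of endosomal Toll-like receptors, ADO a thiol dioxygenase and PARP10 an ADP-ribosyltransferase; PTOV1-AS1 is named as antisense to PTOV1, and whether the authors' counting used strand is not given in the sources used here. Likeness measures shape and not size: IFI44L stood at 6.99 and 45.01 TPM in control and 0.23 to 0.60 TPM with the duplexes, whereas ADO stood at 28.05 and 30.17 TPM in control and 24.73 to 25.63 TPM with the duplexes. Within the members, each correlated with the mean of the other 5 at 0.986 to 0.999, except IFITM2 at 0.787.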

How the data were processed

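RNA-seq was measured in 6 libraries of A172 cells, 2 each of control, 5p duplex and 3p.1 duplex, grouped by sample title. The authors deposited gene levels as TPM, with RSEM and GRCh38 named per the submitters' processing notes; the aligner, versions and annotation: not given in the sources used here. TPM keeps no read total, so depth and counting error are unknown. Repeated symbols within a library were added together, and an unlisted symbol was taken as 0. Genes averaging 1 TPM or more (13400 of 20979) were fitted as log2(TPM + 1) in limma 3.58.1 (R 4.3.3), with all 6 libraries, a variance trend, no replicate term and Benjamini-Hochberg adjustment at 0.05; the fit was tested on simulated data. Levels, motifs and figures were computed in Python 3.11.15 with pandas 2.3.3. An exact permutation test of 2 libraries against 2 has 0.333 as its smallest possible p and was not run.

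The members and gene lists were chosen with earlier results of these data known. Named genes were all members, relatives and partners, a set of interferon genes whatever their values (an item among them is not reported here), up to 5 more called genes of each interferon list, and the 10 genes most like the members. Alternatives were a pseudocount of 0.1, no minimum, a minimum of 5 TPM, only the groups compared, no variance trend, median centring, a replicate term and leaving out each library. Promoters and miRNAs are from RefSeq (GRCh38.p14), and gene spans, transcripts and 3′UTRs from GENCODE 29.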

Additional observations from a re-analysis of the deposited data

How the results depend on the processing

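The count of members called with the 5p duplex against control (3) was 0 without a TPM minimum, 0 when libraries of the third group were dropped from the fit and 0 with no variance trend, and 0 to 5 when 1 library was left out; with the 3p.1 duplex (0) it was 0 to 5. All genes called with the 5p duplex (62) numbered 9, 11 and 33 under the same settings and 7 to 128 when 1 library was left out. With the 3p.1 duplex (2) they numbered 0 without a minimum, 18 with the third group dropped and 5 to 94. Between the duplexes (58) they numbered 5 without a minimum, 19 with the third group dropped, 5 without a trend and 7 to 26, with 0 members called under any alternative run. The 59 other interferon genes called lower with the 5p duplex (1) numbered 0, 0 and 0 under the first settings and 0 to 39 when 1 library was left out, and with the 3p.1 duplex (0) 0 to 40. The cause of these changes was not tested. Where a library was left out, the lone sample of its group is assumed to vary like the others.

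With a replicate block, 5 members were called in each contrast with control, as were 367 genes with the 5p duplex, 30 with the 3p.1 duplex and 278 between the duplexes, and 21 and 1 of the other interferon genes; IRF9 with the 3p.1 duplex then had an adjusted p of 0.0465 by limma. Replicate numbers are tied to no batch by the labels. Deviations of same-numbered libraries correlated at 0.265 (control and 5p duplex), 0.374 (control and 3p.1 duplex) and 0.383 (the duplexes).

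Log2 differences of all 6 members from control stayed negative in all 13 alternatives. Between the duplexes, leaving out 1 library gave -0.43 to 0.0543 for IFITM1, -0.20 to 0.42 for IFITM2, -0.0589 to 0.27 for IFITM3, -0.0409 to 0.39 for IFI6 and -0.11 to 0.39 for BST2; IFI27 kept its sign. Of the 10 genes most like the members, 8 remained with a pseudocount of 0.1 and 9 with a minimum of 1 TPM. TPM keeps no read totals, so no limit set by depth can be given.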

Other observations

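Within the IFITM family the make-up differed between libraries. IFITM1 stood at 8.22% and 18.1% of the IFITM3 level in the controls, 1.57% and 0.854% after the 5p duplex and 1.37% and 1.52% after the 3p.1 duplex. IFITM2 stood at 15.5% and 13.3% of IFITM3 in the controls, 22.1% and 27.04% after the 5p duplex and 22.6% and 26.3% after the 3p.1 duplex. Neither share overlapped between control and duplex libraries. The shares are made from the TPM on which the members were selected, so they restate the differences given above and support nothing further. These are ratios of TPM among genes that share sequence, and no test was run on them.

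IFITM10, a relative of the IFITM members, was higher in replicate 1 than in replicate 2 of every group: 8.5 against 3.84 TPM in control, 6.82 against 3.54 TPM after the 5p duplex and 7.05 against 2.86 TPM after the 3p.1 duplex. The members were higher in replicate 2 in 6 of 6 cases in control, 4 of 6 after the 5p duplex and 5 of 6 after the 3p.1 duplex. Over all genes the shares higher in replicate 2 were 55.9%, 51.0% and 53.2% in the same order, and nothing is read from these counts.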
